A study of Saccharomyces cerevisiae with 2 samples.

Results

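The genes described here encode the aminoacyl-tRNA synthetases of Saccharomyces cerevisiae and ARC1, a cofactor of synthetases in the cytosol. They were chosen by systematic name, by a rule that used no measured value, although earlier results of these data were known. They number 36 of the 6666 coding sequences (CDSs) counted. Of these, 22 act in the cytosol, namely ARC1 and 21 synthetase genes. Among the 21, 5 (ALA1, CRS1, GRS1, HTS1 and VAS1) were classed as dual, supplying the mitochondrial enzyme too. Whether other cytosolic enzymes also enter mitochondria was not examined. The other 14 encode synthetases of the mitochondrion. All 36 were found in both libraries' tables and in the R64 annotation, whose product names match the amino acid of each synthetase. DIA4 and AIM10 are annotated there as putative enzymes for serine and proline.

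An aminoacyl-tRNA synthetase joins an amino acid to its tRNA, and the ribosome takes the charged tRNA as its substrate. In the cytosol each amino acid has an enzyme of its own. Enzymes of class I and class II differ in the fold of their catalytic domain. Yeast translates messages both in the cytosol and in the mitochondrion, whose own genome encodes only a handful of proteins, and all of the synthetases for both places are made from nuclear genes in the cytosol. For most amino acids the places use separate genes. For others a single gene makes both forms from different start codons, the longer form carrying a presequence for import.

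The sequences below show how these forms begin, since a count for a whole CDS adds them up. ALA1 and GRS1 are known to start their mitochondrial forms at codons other than ATG, upstream of the annotated start, and HTS1 and VAS1 to start their cytosolic forms at an ATG downstream of it. Each line holds 30 bases of the coding strand of R64, 5′ to 3′, with the start codons in capitals. The ALA1 window (chrXV:949167-949196, minus strand) holds ACG codons at positions -25 and -24, counted in codons from the annotated ATG. The GRS1 window (chrII:483419-483448, minus strand) holds the TTG at codon -23. The HTS1 window (chrXVI:638942-638971, minus strand) holds the ATG at codon 21, and the VAS1 window (chrVII:672312-672341, plus strand) the ATG at codon 47, both counted from 1 at the annotated ATG.
ALA1 upstream starts: atttaagacaagACGACGtcaactaccgga
GRS1 upstream start: tttcaagaaaaaTTGtcgttcttcaatatc
HTS1 internal start: tcgataatcaggATGtcatccgctaccgct
VAS1 internal start: aggttctttaaaATGagcgatcttgataat

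Ribosome footprints, the mRNA fragments that ribosomes cover, had been sequenced from 2 replicate libraries of BY4742, a haploid laboratory strain of mating type alpha that lacks functional HIS3, LEU2, LYS2 and URA3. The cells came from mid-exponential cultures in a synthetic medium, to which cycloheximide, a blocker of elongation, was added at 50 µg/mL. Both belong to the same group, so no comparison of conditions exists, and the labels do not say whether the cultures were separate. Replicate 1 held 23437283 reads in CDSs and replicate 2 held 2733591, so that 1 read stood for 0.0427 and 0.366 counts per 1000000 CDS reads (CPM). Levels of different genes are compared below as footprint density, in CPM per kilobase of coding length. Footprint counts alone cannot tell more mRNA from more ribosomes per mRNA.

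The cytosolic enzymes were read far more than the mitochondrial ones. In replicate 1 the 36 genes took 2.111% of the CDS reads, with a 95% Wilson interval from 2.105% to 2.117%. In replicate 2 their share was 2.258%, with an interval from 2.241% to 2.276%. Of this the 14 mitochondrial genes took 0.0109% (0.0105% to 0.0114%) and 0.00552% (0.00471% to 0.00648%). Such intervals reflect the counting error of reads alone. Reads that carry no molecular identifier may be copies of the same molecule, which the intervals do not take into account. The median footprint density of the 22 cytosolic genes was 444 CPM per kb in replicate 1 and 489 in replicate 2, that of the 14 mitochondrial genes 4.97 and 2.11, and that of the 5993 CDSs with a known length 21.97 and 12.6. All 22 cytosolic genes lay above the median of all CDSs in both libraries, and all 14 mitochondrial genes below it. The groups did not overlap, since the lowest cytosolic density in either library, 95.1 CPM per kb, was 9.598-fold above the highest mitochondrial density, 9.91 CPM per kb.

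**Figure D1:**
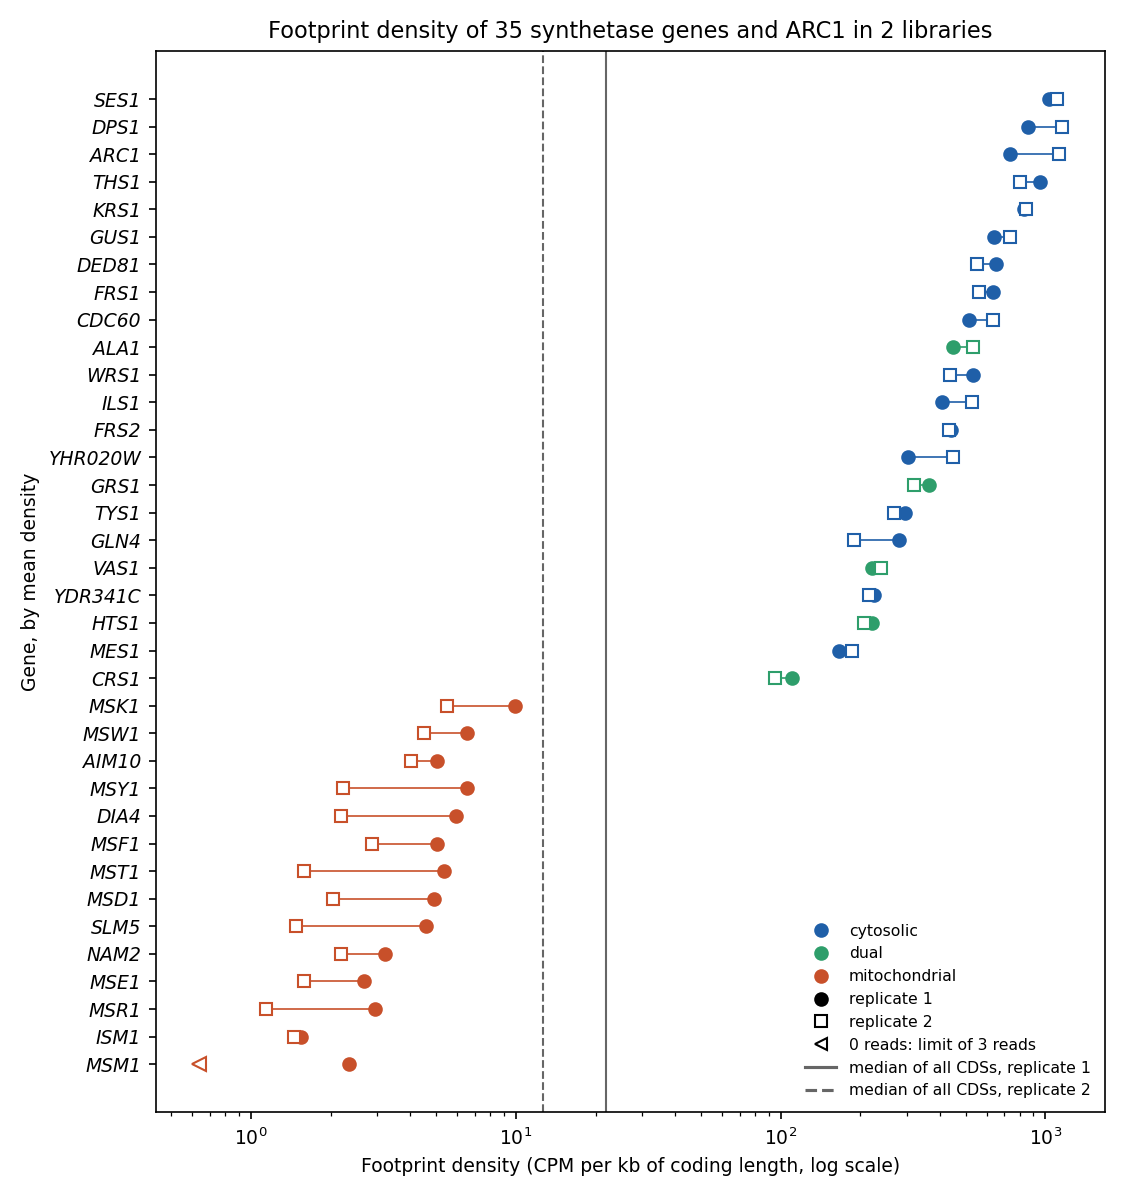
Footprint density in CPM per kilobase of coding length (log axis) of the 36 genes, ordered by their mean, with a filled circle for replicate 1, an open square for replicate 2 and an open triangle at the limit of 3 reads for MSM1, which had 0 reads in replicate 2. The 22 cytosolic and dual genes lie to the right of the medians of all CDSs (vertical lines) and the 14 mitochondrial genes to the left.

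Among the cytosolic enzymes the genes for serine, aspartate, threonine and lysine stood highest, together with ARC1. SES1 (YDR023W), the seryl-tRNA synthetase, had 1028 CPM per kb in replicate 1 and 1109 in replicate 2, a mean of 1068 ± 57.1 (SD, n = 2). DPS1 (YLL018C), the aspartyl-tRNA synthetase, had 860 and 1151 CPM per kb. ARC1 (YGL105W), whose protein binds tRNA and holds the methionyl and glutamyl enzymes, had 737 and 1122 CPM per kb. SES1 led in replicate 1 and DPS1 in replicate 2, and the ranges of neighbours overlapped, so their order is not resolved.

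THS1 (YIL078W), the threonyl-tRNA synthetase, had 951 and 801 CPM per kb, and KRS1 (YDR037W), the lysyl-tRNA synthetase, 831 and 845. GUS1, the glutamyl-tRNA synthetase, had 639 and 734 CPM per kb, below KRS1 in both libraries and with ranges apart. A middle group followed in which neighbours overlapped. It held DED81 for asparagine with 649 and 553 CPM per kb, CDC60 for leucine with 513 and 634, ALA1 for alanine with 448 and 531, WRS1 for tryptophan with 532 and 437, and ILS1 for isoleucine with 406 and 528. The same stretch held FRS1 and FRS2, the subunits of the phenylalanyl enzyme, YHR020W for proline with 303 and 449 CPM per kb, and GRS1 for glycine with 362 and 320.

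By mean density the lowest cytosolic levels were those of the cysteine, methionine and histidine enzymes, although GLN4 lay below HTS1 in replicate 2. TYS1 for tyrosine had 296 and 267 CPM per kb, GLN4 for glutamine 280 and 189, VAS1 for valine 221 and 239.9, YDR341C for arginine 225 and 216, and HTS1 for histidine 221 and 206. MES1 (YGR264C), the methionyl-tRNA synthetase, lay below these with 166 and 187 CPM per kb. CRS1 (YNL247W), the cysteinyl-tRNA synthetase, was last with 110.5 and 95.1 CPM per kb, below MES1 with ranges apart, yet above 81.5% of CDSs by its mean. From SES1 to CRS1 the mean densities spanned 10.4-fold. Of the 35 neighbours in the order of all 36 genes, 5 had ranges that did not overlap.

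The 5 genes classed as dual had a median density of 221 CPM per kb in replicate 1 and 239.9 in replicate 2. The 17 genes classed as cytosolic only had 532 and 553. The groups overlapped, with ALA1 among the genes of middle rank. Enzymes of class II had medians of 636 and 553 CPM per kb over 11 cytosolic genes, and those of class I 288 and 254 over 10. The class II genes ranged from 221 to 1028 CPM per kb in replicate 1 and the class I genes from 110.5 to 639, so the classes overlapped widely. Among mitochondrial genes the medians were 5.05 and 2.18 CPM per kb for 7 of class II and 2.94 and 1.59 for 7 of class I. These medians describe the genes, and no test was made over them.

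The mitochondrial enzymes were read at a low level in both libraries, and none had more than 26 reads in replicate 2. MSK1 (YNL073W), the mitochondrial lysyl-tRNA synthetase, was highest with 402 and 26 reads, or 9.91 and 5.50 CPM per kb. MSW1, for tryptophan, had 175 and 14 reads, and AIM10, for proline, 205 and 19. These 3 genes had mean densities of 7.70 ± 3.12, 5.52 ± 1.46 and 4.53 ± 0.734 CPM per kb (SD, n = 2). They kept this order in both libraries, but the ranges of neighbours overlapped.

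MSY1, for tyrosine, had 227 and 9 reads, DIA4, for serine, 187 and 8, and MSF1, for phenylalanine, 166 and 11. MST1, for threonine, had 175 and 6 reads, MSD1, for aspartate, 228 and 11, and SLM5, for asparagine, 159 and 6. The mean densities of these 6 genes lay between 3.04 and 4.39 CPM per kb, closer together than the libraries were to each other. NAM2, the mitochondrial leucyl-tRNA synthetase, which also takes part in splicing of mitochondrial introns, had 202 and 16 reads. MSE1, for glutamate, had 101 and 7 reads, MSR1, for arginine, 133 and 6, and ISM1, for isoleucine, 109 and 12.

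MSM1 (YGR171C), the mitochondrial methionyl-tRNA synthetase, had 95 reads in replicate 1 and 0 in replicate 2. A count of 0 allows up to 3 reads, or 1.10 CPM, against 4.05 CPM in replicate 1, so by CDS totals MSM1 was at least 3.69-fold lower in replicate 2 if its 95 reads are taken as they stand. The 95% exact interval of the fold, which includes the counting error of those reads, reached up to 0.340. With TMM and DESeq2 scaling the limit of 3 reads gave log2 folds of -1.29 and -1.26. At this depth a low level cannot be told from no translation in that library. Across the 14 mitochondrial genes mean density spanned 6.57-fold, MSM1 included with its 0.

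For 14 amino acids both a cytosolic and a mitochondrial gene exist, and in each of them the cytosolic gene was denser in both libraries. The ratio of densities ran from 45.1-fold to 263-fold in replicate 1, with a median of 124-fold, and from 97.3-fold to 566-fold in replicate 2 (methionine has only a lower bound there), with a median of 292-fold when MSM1 is set at its limit of 3 reads and 327-fold when its ratio is placed highest. The ratio was higher in replicate 2 for all 14. It was lowest in replicate 1 for tyrosine, where TYS1 was 45.1-fold above MSY1 (95% exact interval 39.6 to 51.7), and this interval lies below those of the other amino acids that have one. In replicate 2 the tyrosine ratio was 120-fold (62.97 to 264).

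Leaving out methionine, which has only a lower bound in replicate 2, the ratio was widest for isoleucine in replicate 1 and for aspartate in replicate 2, and by the mean of both libraries for aspartate, with 370-fold, then glutamate, with 350.1-fold. ILS1 was 263-fold above ISM1 in replicate 1 (218 to 320) and 362-fold in replicate 2 (207 to 702). GUS1 was 239-fold (197 to 293) and 462-fold (224 to 1148) above MSE1. DPS1 was 175-fold (154 to 200) and 566-fold (316 to 1134) above MSD1. The intervals of these 3 amino acids overlapped in replicate 2, where MSE1, MSD1 and ISM1 had 7 to 12 reads. Threonine (177 and 507) and serine (173 and 508) lay close to aspartate.

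For tryptophan the libraries differed least, with WRS1 81.2-fold (69.98 to 94.8) and 97.3-fold (57.8 to 178) above MSW1. Proline had ratios of 60.0 (52.3 to 69.2) and 112 (71.4 to 186), and lysine of 83.9 (76.0 to 92.8) and 154 (105 to 236). Across the 14 amino acids the log2 mean densities of both enzymes had Pearson's r = 0.48 and Spearman's rho = 0.30. Both values include methionine, with the 0 of MSM1 in replicate 2 taken as it stands. They are a description over amino acids measured in the same libraries. The 30 bases around the annotated ATG are shown for the amino acids at the ends of the order by mean ratio, aspartate and tyrosine, methionine left out, with the start codon in capitals. DPS1 lies at chrXII:111558-111587 (minus strand), MSD1 at chrXVI:355688-355717 (plus strand), TYS1 at chrVII:867503-867532 (minus strand) and MSY1 at chrXVI:364940-364969 (plus strand).
DPS1 start: acattttacgtgATGtctcaagacgaaaat
MSD1 start: caagttttaatcATGttggcccgttccagg
TYS1 start: attgacgataacATGtcctctgctgccacg
MSY1 start: acattgtgaatcATGctcgaattacgaagt

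**Figure D2:**
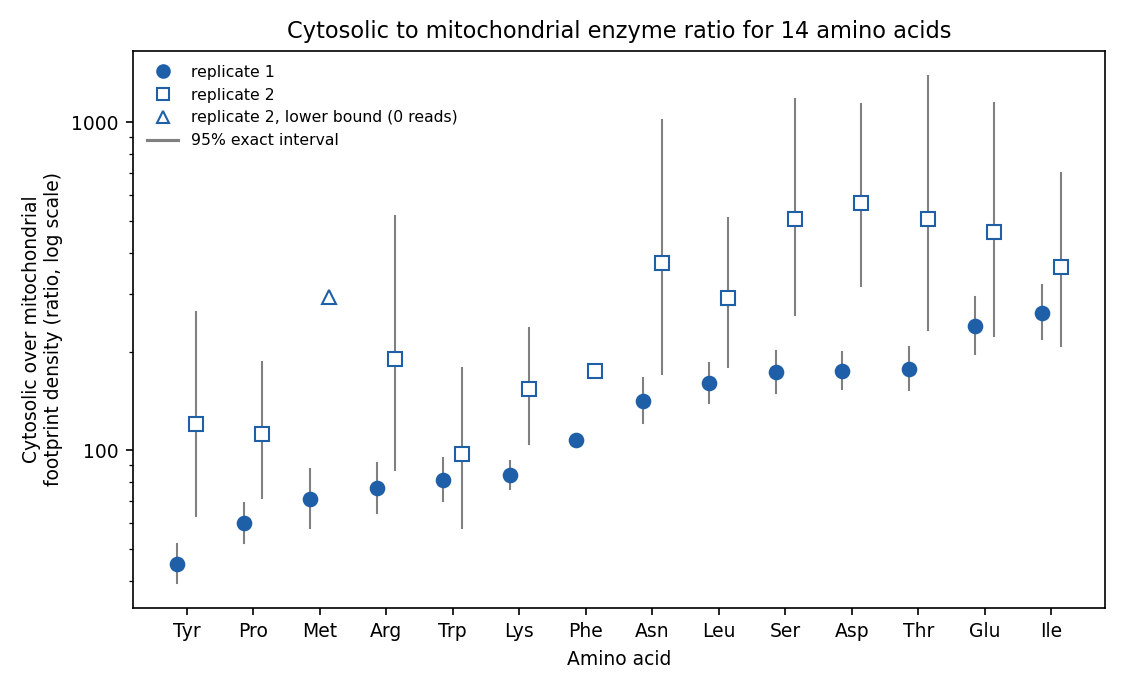
Ratio of the footprint density of the cytosolic gene to that of the mitochondrial gene (log axis) for 14 amino acids, with filled circles for replicate 1, open squares for replicate 2, an open triangle for a lower bound and 95% exact binomial intervals as bars (none for phenylalanine, whose cytosolic value is the mean of FRS1 and FRS2). The ratio is above 45-fold everywhere and higher in replicate 2 for each amino acid.

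Subunits of the same enzyme complex were not read at equal density. The cytosolic phenylalanyl-tRNA synthetase is built from equal numbers of an alpha subunit, encoded by FRS2, and a beta subunit, encoded by FRS1. FRS1 had 26670 and 2753 reads, or 636 and 563 CPM per kb, and FRS2 had 15624 and 1781 reads, or 441 and 431 CPM per kb. FRS2 was thus at 0.693 of FRS1 in replicate 1 (95% exact interval 0.679 to 0.707) and at 0.765 in replicate 2 (0.720 to 0.812). Both intervals lie below 1 and do not overlap each other, a difference between libraries beyond counting error.

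ARC1 forms a complex with the methionyl enzyme MES1 and the glutamyl enzyme GUS1. GUS1 was 3.84-fold (3.75 to 3.93) and 3.93-fold (3.68 to 4.20) denser than MES1, the same ratio within counting error in both libraries. ARC1 was 4.43-fold (4.32 to 4.54) and 6.01-fold (5.62 to 6.43) denser than MES1, and 1.15-fold (1.13 to 1.17) and 1.53-fold (1.46 to 1.60) denser than GUS1. MES1 was thus the least read of the 3 in both libraries, and the ratios with ARC1 differed between libraries.

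All 36 genes had a mean of at least 10 reads and were compared between the libraries by the two-sided exact binomial test of their counts against the CDS totals, with Benjamini-Hochberg adjustment over 5131 CDSs and a threshold of 0.05. This test sets a library against the other beyond counting error and says nothing of a condition. Of the 22 cytosolic genes 10 were higher and 8 lower in replicate 2, where 7.25% of all tested CDSs were higher and 63.9% lower. Of the 487 other CDSs in the same range of mean CPM, 26.1% were higher and 57.3% lower. Of the 14 mitochondrial genes 0 were higher and 8 lower. Among the 1150 other CDSs in their range of mean CPM, 1.22% were higher and 51.0% lower. In all, 26 of the 36 differed, near the 71.2% of all tested CDSs. With edgeR's TMM factors 21 cytosolic genes were higher and 0 lower, where 24.3% of all tested CDSs were higher, 20.1% lower and 44.4% either. DESeq2's size factors gave the same 21 and 0, where 25.7% were higher, 18.4% lower and 44.1% either. These shares cover CDSs of every level, and those of the CDSs in the same range of mean CPM were not counted under either scaling. The median log2 ratio of all tested CDSs was -0.61, a shift shared by most of them, and the directions below are by CDS totals.

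ARC1 and YHR020W were the furthest above. ARC1 had 19533 reads in replicate 1 and 3470 in replicate 2, with a log2 ratio of 0.61, a 95% exact interval of the fold from 1.47 to 1.58 and an adjusted p = 4.36e-103 by the exact binomial test. YHR020W had 14694 and 2536 reads, with a log2 ratio of 0.57 and an interval from 1.42 to 1.54. DPS1, with a log2 ratio of 0.42, ILS1, with 0.38, CDC60, with 0.31, ALA1, with 0.25, GUS1, with 0.20, and MES1, VAS1 and SES1, with at most 0.17, were also higher. All 10 were higher in replicate 2 under edgeR's TMM and DESeq2's scaling as well.

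GLN4 was the furthest below among cytosolic genes. It had 15945 and 1252 reads, a log2 ratio of -0.57, an interval of the fold from 0.635 to 0.713 and an adjusted p = 9.34e-45 by the exact binomial test. THS1, WRS1, DED81, CRS1, GRS1, FRS1 and TYS1 were also lower, with log2 ratios from -0.28 to -0.14. These 8 are lower only by CDS totals. Under TMM or DESeq2 scaling the direction of all 8 turned, 7 of them became higher in replicate 2 past the threshold, and GLN4 lay near the median of all CDSs. KRS1, FRS2, YDR341C and HTS1 did not pass the test by CDS totals, with log2 ratios from -0.10 to 0.02.

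All 22 cytosolic genes lay above the median ratio of all tested CDSs, with a median log2 ratio of -0.01. Highly read CDSs as a whole had ratios nearer 0 than the median of all tested CDSs. Among the 487 other CDSs with a mean CPM between the lowest and highest cytosolic gene, 237 to 1930 CPM, the median log2 ratio was -0.16 and the quartiles -0.49 and 0.09. Of the 22 genes 15 lay above that median. The 14 mitochondrial genes had a median log2 ratio of -0.93, which is the same with MSM1 at its limit of 3 reads (-1.27 on this scale), against -0.78 (quartiles -1.16 and -0.38) among the 1150 other CDSs in their range, 2.03 to 13.3 CPM, and 6 of the 14 lay above that median. Level moved with the ratio, and its part in these differences was not tested.

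Among mitochondrial genes the 8 that were lower were MSM1, MST1, MSY1, SLM5, DIA4, MSD1, MSR1 and MSK1. For MSM1 the exact binomial test gave an adjusted p of 1.32e-04, and it was lower under TMM and DESeq2 scaling as well. The other 7 had log2 ratios from -1.41 for MST1 to -0.79 for MSK1, and none of them passed the threshold under either scaling. MSF1, MSW1, NAM2, MSE1, AIM10 and ISM1 did not pass. Their fold intervals, such as 0.473 to 1.72 for ISM1, are wide because replicate 2 had 7 to 19 reads of each.

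**Figure D3:**
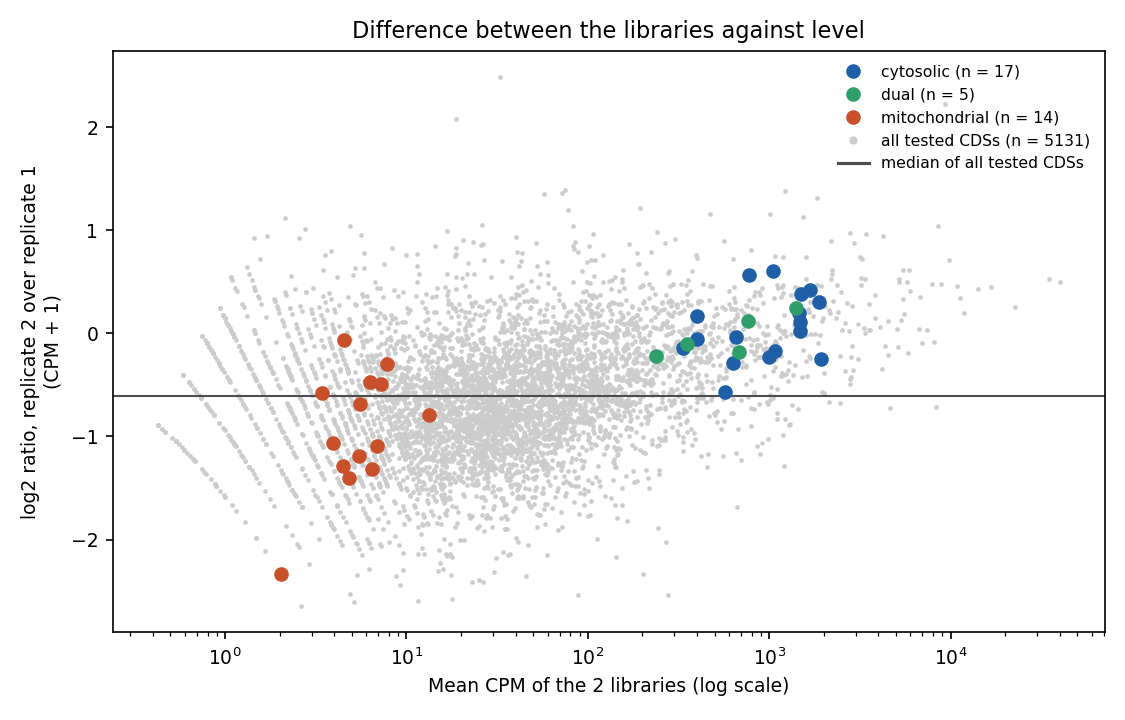
Log2 ratio of replicate 2 over replicate 1, from CPM with a pseudocount of 1, against the mean CPM of both libraries (log axis) for the 5131 tested CDSs (grey) and the 36 genes (coloured by compartment). The 22 cytosolic and dual genes lie above the median of all tested CDSs (line, -0.61) and the mitochondrial genes on both sides of it.

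The use of each amino acid was estimated by weighting the composition of 5993 CDSs with their reads, and set beside the density of its cytosolic enzyme. Across 20 amino acids Spearman's rho was 0.48 in replicate 1 and 0.66 in replicate 2, and 0.57 for the means of both. This is a description, and all points come from the same libraries. Lysine, at 8.54% of residues, was high on both scales, with KRS1 at 838 CPM per kb, and cysteine, at 0.915%, was lowest on both, with CRS1 at 103 CPM per kb. Methionine, at 1.92%, and histidine, at 2.05%, were also low on both, with MES1 at 176.5 and HTS1 at 213.5 CPM per kb.

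Tryptophan stood apart. At 0.991% of residues it was used about as little as cysteine, yet WRS1 had a mean density of 484.5 CPM per kb, or 489 per percent of use, the highest of the 20. DPS1 followed with 177 CPM per kb per percent, SES1 with 159 and THS1 with 158. The lowest value was that of VAS1, the valyl enzyme, with 32.3 CPM per kb per percent, followed by YDR341C with 41.6, GRS1 with 51.6 and ALA1 with 56.8. Of these 4, VAS1, GRS1 and ALA1 serve both compartments. The other genes classed as dual, CRS1 with 112 and HTS1 with 104, lay higher. The number of nuclear tRNA genes, 275 in all, had a rho of 0.86 with use, beside the 0.57 of enzyme density with use, and a rho of 0.45 with enzyme density. These values were not tested against each other.

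**Figure D4:**
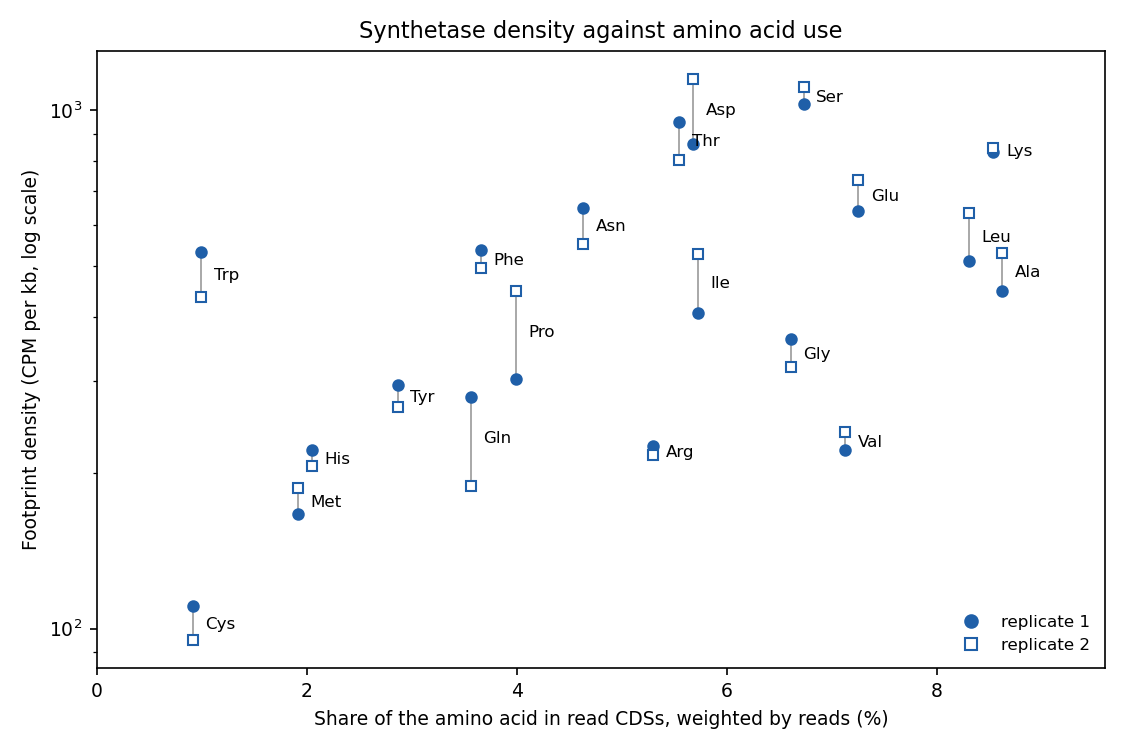
Footprint density of the cytosolic synthetase in CPM per kb (log axis) against the share of its amino acid in all read CDSs weighted by reads (percent, mean of both libraries), with filled circles for replicate 1 and open squares for replicate 2. Tryptophan lies at low use and middle density, and valine and arginine at higher use and low density.

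The genes of both compartments also differed in sequence. Codon adaptation, the likeness of a gene's codons to those of cytosolic ribosomal protein genes on a scale up to 1, had a median of 0.415 in the 22 cytosolic genes (0.335 to 0.540) and of 0.180 in the 14 mitochondrial ones (0.144 to 0.222), beside 0.194 over all CDSs. The groups did not overlap. GUS1 was highest with 0.540, KRS1 had 0.503 and GRS1 0.498, and CRS1 was lowest of the cytosolic genes. Within the cytosolic genes rho between codon adaptation and mean density was 0.66, within the mitochondrial ones -0.24, and over 5557 CDSs with reads 0.44, all as descriptions across genes.

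**Figure D5:**
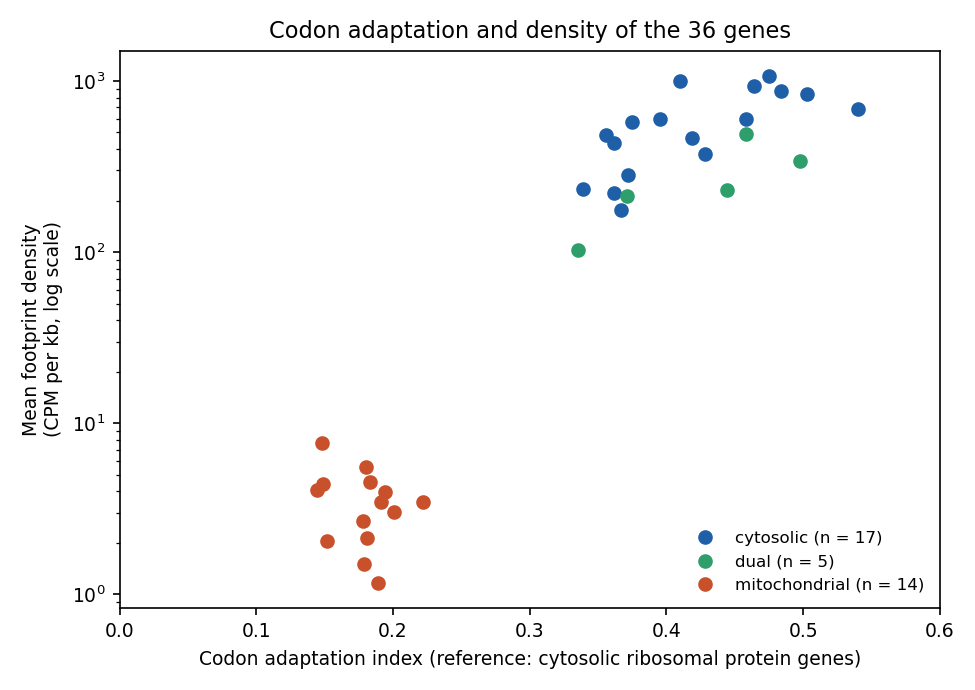
Mean footprint density in CPM per kb (log axis) against the codon adaptation index for the 36 genes, coloured by compartment. Cytosolic and dual genes (0.335 to 0.540) and mitochondrial genes (0.144 to 0.222) form separate clouds on both axes.

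The first residues differed as well. Between residues 2 and 20, 12 of the 14 mitochondrial proteins had no aspartate or glutamate, or 85.7%, against 3 of the 22 cytosolic ones and 23.6% over all CDSs. The exceptions were MSD1 and MSY1, with 1 such residue each. The 3 cytosolic ones without an acidic residue were CRS1, HTS1 and VAS1, all of which serve both compartments. The annotated starts of HTS1 and VAS1 give the longer form. ALA1 and GRS1, whose annotated start gives the cytosolic form, had 2 and 3. Presequences for mitochondrial import are known to be poor in acidic residues. An A at position -3 before the start codon was found in 16 of the 22 cytosolic genes (72.7%), 8 of the 14 mitochondrial genes (57.1%) and 60.9% of all CDSs.

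The motif TGACTC, bound by GCN4, the activator of amino acid biosynthesis genes, was searched on both strands of the 250 bases before each start codon. It was found before 9 of the 22 cytosolic genes (ALA1, YDR341C, CRS1, ILS1, KRS1, YHR020W, THS1, VAS1 and ARC1) and 0 of the 14 mitochondrial ones, beside 6.26% of all CDSs. A match is a description of these letters only. DED81 and YHR020W are divergent neighbours on chromosome VIII with 437 nt between their start codons. They went opposite ways by CDS totals, DED81 with a log2 ratio of -0.23 and YHR020W with 0.57, but both were higher in replicate 2 under TMM and DESeq2 scaling. The motif lies within the window of YHR020W and not within that of DED81.

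Open reading frames outside annotated genes (intergenic ORFs, IGORFs) had also been counted, and those on the strand of a synthetase gene, overlapping its start or ending within 200 nt upstream of it, held few reads. There were 127 of them, and 17 had a read in either library, or 13.4%, beside 5.82% of all 78989 IGORFs. They held 9 reads in replicate 1 and 37 in replicate 2, near 13 of the 36 genes. The 5.82% covers IGORFs near a gene or not, and those at the starts of other genes were not counted apart. Some of these IGORFs overlap each other, as at NAM2 and MSW1, so a read may be counted more than once. Replicate 2 held more IGORF reads in all, 15116 against 4057, although it was the shallower library for CDSs.

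The IGORF counts were used as the libraries are labelled, but the reversed order of depth leaves it uncertain whether each IGORF table belongs to the library it is listed under, so the values per library below carry that doubt. The IGORF that covers the TTG of GRS1 shown above (chromosome II, 483364 to 483519) overlaps the start of the CDS by 4 nt in another reading frame. It had 2 and 7 reads, or 0.547 and 16.4 CPM per kb, against 362 and 320 CPM per kb in the GRS1 CDS. With the tables exchanged these IGORF densities would be 1.91 and 4.69 CPM per kb. The IGORF that covers the ACG codons of ALA1 (chromosome XV, 949117 to 949230) lies 7 nt before the CDS in another frame and had 0 and 2 reads. Another that covers them (949163 to 949234), also out of frame, had 1 and 0. The counts carry no reading frame, so a read there cannot be assigned to the IGORF or to the longer form of the synthetase. The most reads at any start in replicate 2, 9, lay in the IGORF that ends 2 nt before SES1, which had 0 in replicate 1. The one that ends 17 nt before KRS1 had 4 and 3 reads. Each of these IGORFs had 0 to 9 reads in a library, and differences among them were not tested.

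The 16 other genes of tRNA charging and delivery were read at widely different levels. GRS2, the other glycyl-tRNA synthetase gene, had 524 and 43 reads, or 12.04 and 8.47 CPM per kb, against 362 and 320 for GRS1. PET112, HER2 and GTF1 encode the amidotransferase that makes glutaminyl-tRNA in mitochondria, which have no glutaminyl enzyme of their own among the 14 genes. Their densities were 7.48 and 3.38, 3.30 and 1.31, and 22.3 and 12.6 CPM per kb. TUF1, the elongation factor that carries charged tRNA in mitochondria, had 80.8 and 59.3 CPM per kb, above all 14 mitochondrial synthetase genes.

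GCN2, the kinase that senses uncharged tRNA, had 6.65 and 5.51 CPM per kb, and its activators GCN1 and GCN20 had 45.5 and 48.1, and 131.5 and 110.0. TEF1 and TEF2, which encode the factor that carries charged tRNA in the cytosol, share 95.9% of their stretches of 28 bases with other places in the genome, so their counts are uncertain. None of the 36 genes shares such a stretch with another place. Of the 16 other genes 13 were lower in replicate 2 and 0 higher by the exact binomial test with CDS totals, where 63.9% of all tested CDSs were lower, and their median log2 ratio was -0.74. With TMM scaling 4 were lower and 2 higher, where 20.1% of all tested CDSs were lower and 24.3% higher. The 4 were DTD1, LOS1, TEF1 and TEF2, so TEF1 and TEF2, with their uncertain counts, are part of both tallies.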

How the data were processed

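Both libraries are footprint libraries of BY4742. The authors deposited whole-number read counts for each feature, unnormalized, per the file headers. Cutadapt, Bowtie, SAMtools and build sacCer3 are named per the submitters' processing notes; how reads were counted, treated when they matched more than 1 place, or selected by length or frame is not given in the sources used here. R64 is the assembly behind sacCer3, and all 78989 intergenic ORFs have a stop codon at an end in it. Of 6666 CDSs, 5993 matched its annotation and have a coding length. CPM uses each library's CDS total. Log2 ratios use a pseudocount of 1 CPM. The exact binomial test was tested on simulated data that held counting error alone. It recovered 57.3% of changes of 1.5-fold and 92.5% of changes of 4-fold. Because no other difference between libraries was simulated, its rate of false calls between real libraries is not known from this. Scaling factors came from edgeR 4.0.16 (TMM) and DESeq2 1.42.0 run under R 4.3.3. Python 3.11.15 did the rest, with Biopython 1.88, pandas 2.3.3, scipy 1.17.1 and numpy 2.4.6. The p-values measure departure from counting error between these libraries and estimate no spread among replicates. The replicates are not stated to be separate cultures, so the differences may be technical.

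Genes, lists and tests were chosen with earlier results of these data known. All 36 genes and 16 further genes of tRNA charging were named by rule. Codon adaptation (reference: 131 ribosomal protein genes), first residues, the motif, tRNA genes and the CDSs of like level were added after values were seen. Amino acid use came from the annotated R64 coding sequences, in place of the protein table first planned. No protein sequence is printed. No comparison of groups could be made, so edgeR and DESeq2 served only as scaling alternatives.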

Additional observations from a re-analysis of the deposited data

How the results depend on the processing

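Directions between the libraries depended on the scaling. With edgeR's TMM factors and with DESeq2's size factors alike, 22 of the 36 genes differed in place of 26. Of the 22 cytosolic genes, 21 were higher and 0 lower in replicate 2, in place of 10 and 8. Of the 14 mitochondrial genes, 1 was lower in place of 8. Of the 16 partner genes, 4 were lower in place of 13. Over all tested CDSs the share that differed went from 71.2% by CDS totals to 44.4% with TMM and 44.1% with DESeq2 factors. The share higher went from 7.25% to 24.3% and 25.7%, and the share lower from 63.9% to 20.1% and 18.4%. These shares cover CDSs of every level, and CDSs of like level were not counted apart under either scaling. Both methods move the median log2 ratio of all tested CDSs, -0.61 by CDS totals, to near 0 (-0.01 and 0.02), which alone shifts each gene by a constant. The direction turned for 15 genes. Their log2 folds, here with no pseudocount, became, with TMM and with DESeq2 factors, 0.54 and 0.57 for YDR341C, 0.37 and 0.39 for DED81, 0.38 and 0.41 for CRS1, 0.026 and 0.055 for GLN4, 0.42 and 0.45 for GRS1, 0.50 and 0.53 for HTS1, 0.42 and 0.45 for FRS1, 0.56 and 0.59 for FRS2, 0.35 and 0.38 for THS1, 0.31 and 0.34 for WRS1, 0.45 and 0.48 for TYS1, 0.052 and 0.082 for MSW1, 0.51 and 0.54 for ISM1, 0.038 and 0.068 for NAM2, and 0.27 and 0.29 for AIM10. With no minimum count or a mean of at least 30 reads, all 36 genes kept their direction and side of the threshold.

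In CPM with no length correction the cytosolic median was 853 in place of 467, and with totals that leave out YLR154C-G and the 10 highest CDSs it was 572 CPM per kb. In CPM the ratios became 0.616 for FRS2 to FRS1, 3.66 for GUS1 to MES1 and 2.62 for ARC1 to MES1 (0.729, 3.88 and 5.22 per length), and rho with amino acid use became 0.72 in place of 0.57. With a single library left, the cytosolic median ranged from 444 to 489 and the mitochondrial from 2.11 to 4.97 CPM per kb. The median ratio of both compartments ranged from 124 to 292, the subunit ratios from 0.693 to 0.765, from 3.84 to 3.93 and from 4.43 to 6.01, and rho from 0.48 to 0.66. Reads in IGORFs at the starts ranged from 9 to 37. Their CPM was 35.3-fold higher in replicate 2, and 2.09-fold if each library is given the other's IGORF table. As labelled, replicate 2 also held more reads over all IGORFs, 15116 against 4057, so the shift is not particular to these starts. No paired analysis was possible because both libraries belong to the same group. Depth limits the mitochondrial genes of replicate 2, at 0 to 26 reads each.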
